A study of Arabidopsis thaliana with 12 samples.

Results

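NADPH:protochlorophyllide oxidoreductase (POR) is encoded by 3 genes in Arabidopsis thaliana, PORA (AT5G54190), PORB (AT4G27440) and PORC (AT1G03630). They were taken by gene identifier from 6 deposited tables, which between them list 11417 genes, and all 3 were found: PORA in 5 tables, PORB in 4 and PORC in 4. RNA had been sequenced from 12 libraries in 4 groups of 3 biological replicates: wild-type Col-0 kept dark, Col-0 given light for 3 h, and the same pair for 35S:miR396a, a line that carries miR396a behind the viral 35S promoter. All plants, the controls included, spent 4 days in darkness on MS medium with 1% sucrose. The sources used here do not give how many 35S:miR396a lines were used, or the colour and strength of the light. The tissue is labelled hypocotyl, while the growth protocol speaks of seedlings.

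POR reduces protochlorophyllide to chlorophyllide, the step of chlorophyll synthesis that in flowering plants needs light. In darkness the enzyme is stored with its substrate and NADPH in the prolamellar bodies of etioplasts, and light absorbed by the pigment itself drives the reaction. Protochlorophyllide that is not bound to POR can pass absorbed light energy to oxygen and so damage the cell. PORA is known as the copy of dark-grown seedlings whose transcript is lost in light, PORB as a copy used in dark and light, and PORC as a copy of greening and mature leaves.

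The values are the authors' mean FPKM over the 3 libraries of a group, that is, fragments scaled for transcript length and library size, so levels can be compared between genes. Single-library values were not analysed here, no SD can be given, and no difference could be set beside the spread of the replicates. A gene is called "listed" where the authors' deposited table for a pair of groups holds it, which requires a fold over 2 and a q-value under 0.001. That q-value carries counting error only. Depth was estimated from the deposited folds and p-values at a median of about 116000000 to 123000000 fragments per group, depending on the table. At that depth the counting error of the POR levels was at most 3.03%, for PORA in illuminated Col-0 with about 1089 fragments. In bulk RNA, fewer cells of a type and less RNA per cell cannot be told apart.

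The 3 copies lie on different chromosomes of the TAIR10.1 reference. PORA occupies chromosome 5 from 21990864 to 21992814 on the minus strand in 5 exons and encodes 405 residues. PORB lies on chromosome 4 from 13725546 to 13727440 on the plus strand, with 4 exons and 401 residues. PORC lies on chromosome 1 from 907523 to 909650 on the plus strand, with 5 exons and 401 residues. PORA and PORB are the closest pair, with 353 of 401 aligned residues identical (88.0%), whereas PORC shares 77.6% of aligned residues with PORA and 77.3% with PORB. In coding sequence the identity is 83.5% for PORA and PORB, 77.0% for PORA and PORC and 77.2% for PORB and PORC. The longest stretch identical between any 2 of the transcripts is 48 bases, between PORA and PORB, so reads shorter than that could fall on either copy. On the opposite strand 2 genes overlap: AT4G27450 covers 71 bases at the 3′ end of PORB, and AT1G03620 covers 121 bases of PORC. The sources used here do not give the strand of the libraries, so reads in those bases cannot be assigned to a gene. AT4G27450 had 253 FPKM in dark Col-0, 24.7 in illuminated Col-0, 188 in dark 35S:miR396a and 73.4 in illuminated 35S:miR396a. AT1G03620 was in no table.

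The sequence just before the annotated start is shown for PORA and PORB, the closest pair. Introns and sequence further from the start were not compared. PORA is given from chr5:21992815-21993064 (minus strand) and PORB from chr4:13725360-13725545 (plus strand), both from the TAIR10.1 genome with RefSeq annotation, 5′ to 3′ and ending at the base before the start. Capitals mark runs of at least 10 bases found in both.
PORA: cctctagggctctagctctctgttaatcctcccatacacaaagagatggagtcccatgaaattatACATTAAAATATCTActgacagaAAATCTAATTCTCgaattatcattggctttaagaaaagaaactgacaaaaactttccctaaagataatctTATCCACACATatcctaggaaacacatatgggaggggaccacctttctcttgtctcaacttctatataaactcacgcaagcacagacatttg
PORB: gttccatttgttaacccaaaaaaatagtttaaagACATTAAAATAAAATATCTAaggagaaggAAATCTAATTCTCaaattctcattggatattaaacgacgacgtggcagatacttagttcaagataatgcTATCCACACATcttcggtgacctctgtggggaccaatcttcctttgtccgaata
The shared runs stand in the same order in both. AAATCTAATTCTC begins 162 bases before the start of PORA and 123 before that of PORB, and of 27443 promoter windows of 250 bases only 3 hold it on either strand, those of PORA, PORB and AT5G58010. TATCCACACAT begins 92 and 54 bases before the start and occurs in 11 windows (0.0401%). ACATTAAAATA and TAAAATATCTA, which overlap in both PORA and PORB, occur in 45 and 44 windows. Between PORC and either other copy the longest shared run was 7 or 8 bases.

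Motifs were searched on both strands of the 250 bases before each start. The evening element AAATATCT, a clock-related motif, occurs once in PORA, 179 bases before the start, and once in PORB, 141 before, within the shared runs, and it is present in 4.79% of all windows. The G-box CACGTG (6.49% of windows), CACATG (11.1%), which PIF factors bind, and TGTCAGG (0.754%), which GRF factors bind, were in none of the 3 windows. CGTGNG, where N is any base, was searched as a loose pattern for the BZR1 element. It matches once in PORA, 22 bases before the start, on the opposite strand, where the bases read CGTGAG. Whether BZR1 binds these bases was not tested. The pattern is in neither of the windows of PORB and PORC, and in 12.5% of all windows. The window of PORC is free of exons of the neighbouring gene AT1G03620 only in the 11 bases next to the start, which bears on its motifs and on its short shared runs. That of PORB is free of exons of other genes only in the 186 bases next to the start, while its motif search covered all 250 bases. No match says only that these letters are absent from the window.

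In dark-grown Col-0, PORA and PORB were present at nearly equal levels, 849 and 884 FPKM, and PORC stood at 19.4 FPKM. After 3 h of light PORA was at 5.93 FPKM, PORB at 418 and PORC at 90.4. The order of the copies therefore went from PORB and PORA with PORC far below, to PORB, PORC, PORA. In 35S:miR396a the dark levels were 161 FPKM for PORA, 591 for PORB and 8.54 for PORC. The illuminated levels in that line were 10.2 FPKM for PORA, 112 for PORB and 12.1 for PORC. PORB was thus the most abundant copy in all 4 groups, and PORA and PORC were close only in illuminated 35S:miR396a. Whether neighbouring levels differ beyond the spread between replicates could not be tested.

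**Figure D1:**
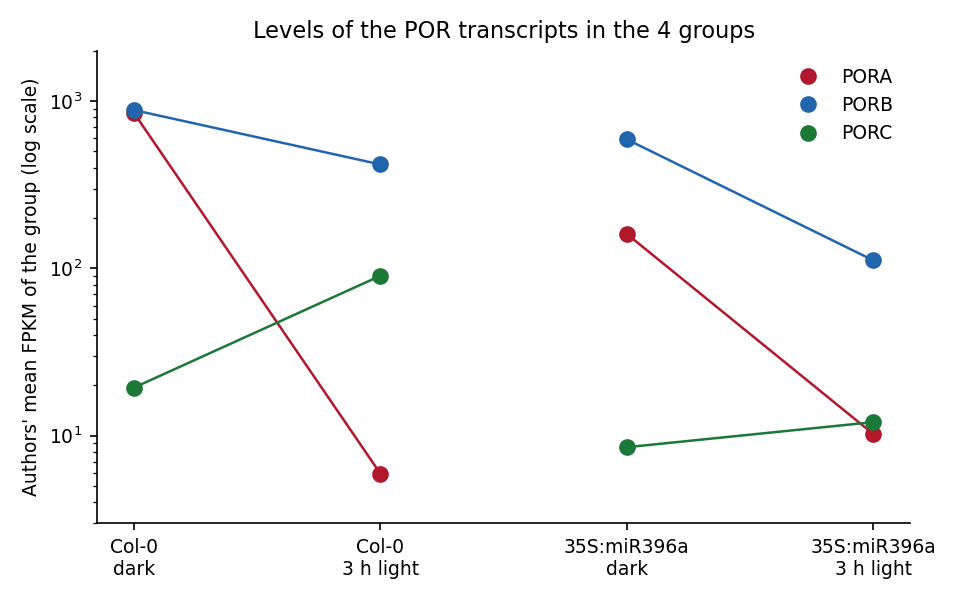
Authors' mean FPKM (log axis) of PORA, PORB and PORC in the 4 groups, 1 point per group mean of 3 libraries, with lines joining dark and light of a genotype and no error bars because single-library values were not used. PORA goes from 849 to 5.93 FPKM in Col-0 and from 161 to 10.2 in 35S:miR396a, while PORC goes from 19.4 to 90.4 and from 8.54 to 12.1.

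Light in Col-0 moved the copies in different directions. PORA was 143-fold lower after 3 h, with 0.698% of its dark level left, and the authors' deposited table lists it lower, at -7.15 on the log2 scale and with a q-value of 0. Of 7581 genes with values above 0 in both groups, 8 had a lower ratio. The tables hold called genes only, so such ranks and medians describe genes listed in some comparison and not the whole genome. PORB, the copy known to persist in light, was 2.11-fold lower, and the authors' deposited table gives -1.07 on the log2 scale. PORC was 4.66-fold higher, and the authors' deposited table gives 2.21. So 2 of the 3 copies were listed lower and 1 higher, where 26.1% of all listed genes were listed lower and 17.0% higher in this comparison. The share is read over genes listed in any of the 6 tables, since the sources used here do not give how many genes the authors tested. The median log2 ratio of the 7581 genes was -0.36, and PORB lies at percentile 35.8 of them and PORC at 93.3.

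Light in 35S:miR396a left PORA and PORB lower and PORC unlisted. PORA was 15.7-fold lower, or -3.98 on the log2 scale of the authors' deposited table, and 63 of 7596 genes had a lower ratio. PORB was 5.29-fold lower, or -2.40 on the log2 scale of the authors' deposited table, at percentile 5.65. PORC was 1.41-fold higher, 0.50 on the log2 scale, which is under the fold the list requires. The 2 copies listed lower compare with 23.1% of all listed genes, and the 0 copies listed higher with 20.6%. The median log2 ratio of these genes was -0.12.

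The size of the light ratio was then compared between the genotypes for each copy. When the log2 light ratio of Col-0 was subtracted from that of 35S:miR396a, PORA gave 3.19, a 9.13-fold smaller reduction. PORB gave -1.32, a 2.50-fold deeper reduction, and PORC gave -1.72, a 3.30-fold smaller ratio. Over 6004 genes the same difference had a median of 0.32 and quartiles of -1.40 and 1.81, so PORB lay between the quartiles while PORA and PORC lay beyond them. No test of the difference could be made from group means.

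**Figure D2:**
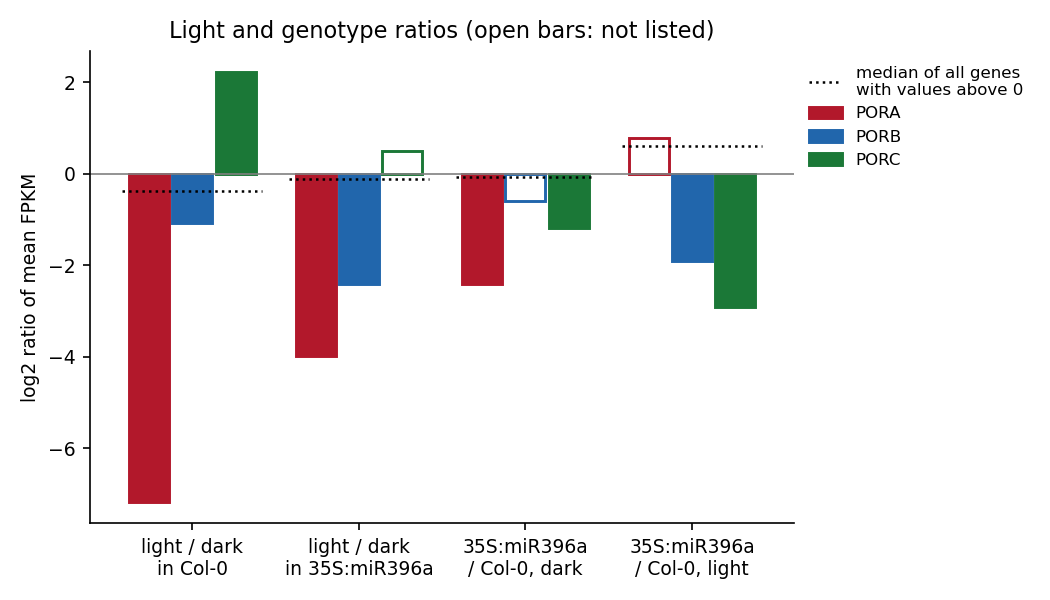
Log2 ratio of the authors' mean FPKM for each copy in the light comparisons (light over dark) and the genotype comparisons (35S:miR396a over Col-0). Filled bars are ratios listed by the authors and open bars are unlisted ones. Dotted lines give the median of genes listed in any comparison that have values above 0 in both groups. PORA has the lowest bar with light in Col-0 (-7.16), and PORC is lowest in 35S:miR396a in the light (-2.91).

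Between genotypes in the dark, PORA and PORC were listed lower in the transgenic line. PORA was 5.29-fold lower there, at -2.40 on the log2 scale of the authors' deposited table, and 304 of 7060 genes had a lower ratio. PORC was 2.27-fold lower, at -1.17 on the log2 scale and with a DEGseq q-value of 1.37e-170 in the authors' deposited table. PORB was 1.5-fold lower and was not listed. The 2 copies listed lower stand beside 10.6% of all listed genes, and the 0 listed higher beside 8.74%.

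After 3 h of light PORA was no longer the copy with the lowest genotype ratio, and PORC stayed below PORB. PORC was 7.50-fold lower in 35S:miR396a, at -2.89 on the log2 scale of the authors' deposited table, and 223 of 8606 genes had a lower ratio. PORB was 3.74-fold lower, and the authors' deposited table gives -1.90 on the log2 scale. PORA was 1.73-fold higher, 0.79 on the log2 scale, and was not listed. This comparison had the widest lists, with 25.9% of all listed genes lower and 35.5% higher, and the median log2 ratio of its 8606 genes was 0.61. Relative to that median PORA stood at 0.18, PORB at -2.51 and PORC at -3.52.

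Summed over the 3 copies, POR transcript was 1752 FPKM in dark Col-0, 514 in illuminated Col-0, 760 in dark 35S:miR396a and 134 in illuminated 35S:miR396a. The sum was 3.41-fold lower with light in Col-0 and 5.67-fold lower with light in 35S:miR396a. Between genotypes it was 2.31-fold lower in 35S:miR396a in the dark and 3.84-fold lower in the light. PORB made up 50.4% of the sum in dark Col-0 and 81.3% in illuminated Col-0, 77.7% in dark 35S:miR396a and 83.4% in illuminated 35S:miR396a. In the dark PORA held 48.4% in Col-0 but 21.1% in 35S:miR396a, and in the light 1.15% and 7.64%. PORC held 1.11% and 1.12% in the dark, and 17.6% and 9.0% in the light, in Col-0 and 35S:miR396a in turn. The makeup of the dark pool thus differed between genotypes in PORA and PORB, and that of the light pool mainly in PORC and PORA.

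**Figure D3:**
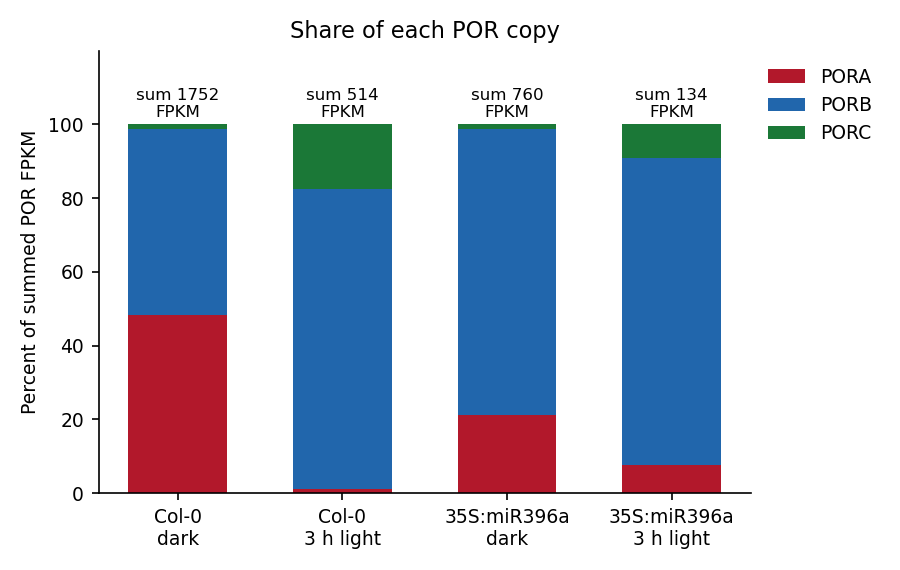
Percent of the summed POR FPKM held by each copy in the 4 groups, as stacked bars, with the sum in FPKM above each bar. PORB takes 50.4% in dark Col-0 and 77.7% to 83.4% in the other groups, where the sum is lower.

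The other genes of the chlorophyll branch were taken as a list of 13 that holds the magnesium chelatase subunits, the steps between it and POR, the steps after POR and the regulator FLU. With light in Col-0, 11 of the 13 were listed higher and 0 lower, beside 17.0% and 26.1% of all listed genes. The median log2 ratio of the list was 2.01, against -0.36 over the 7581 genes with values above 0 in both groups. PORC thus had the direction of this list, and PORA and PORB did not. CHLH, the large chelatase subunit, went from 83.5 to 555 FPKM, and CRD1, a subunit of the cyclase, from 262 to 1177. DVR, which reduces the divinyl side group, went from 16.4 to 118, and CAO, which makes chlorophyll b, from 36.1 to 146. GUN4, which activates the chelatase, went from 31.4 to 195, and LCAA, a cyclase subunit, from 77.9 to 187. CHLM, a methyltransferase, went from 172 to 389 and CHLG, chlorophyll synthase, from 38.4 to 79.3. CHLP, geranylgeranyl reductase, had 923 FPKM in the dark and 767 in the light, and FLU, which restrains pigment synthesis in darkness, had 85.2 and 101, and neither was listed.

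With light in 35S:miR396a none of the 13 was listed higher and 2 were listed lower, beside 20.6% and 23.1% of all listed genes. The median log2 ratio of the list was -0.32. CHLM went from 218 to 94.1 FPKM and CHLP from 814 to 189, both listed. CHLH stood at 83.9 and 79.6 FPKM, CRD1 at 250 and 277, GUN4 at 30.3 and 36.4, and DVR at 11.7 and 14.9. LCAA stood at 70.7 and 60.7 FPKM and CAO at 24.2 and 29.6, and none of these was listed. In the dark, 1 of the 13, FLU, was listed lower in 35S:miR396a, beside 10.6% of all listed genes. FLU had 24.8 FPKM there against 85.2 in Col-0, and the median log2 ratio of the list was -0.06. In the light all 13 were listed lower, beside 25.9% of all listed genes. The median log2 ratio of the list was -2.30, against 0.61 over the 8606 genes with values above 0 in both groups. The illuminated 35S:miR396a levels of CHLG and FLU were 28.7 and 17.0 FPKM. In that comparison PORB and PORC had the direction of the whole branch.

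**Figure D4:**
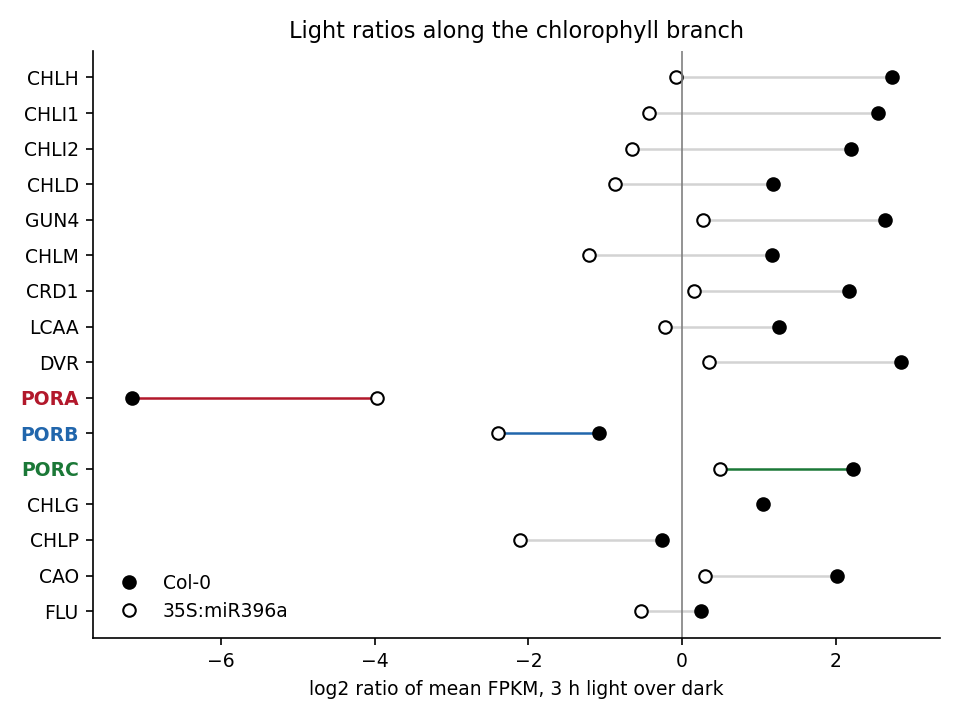
Log2 ratio of mean FPKM, light over dark, for the 13 chlorophyll-branch genes and the 3 POR copies in pathway order (CHLG has no dark 35S:miR396a value), with filled points for Col-0 and open points for 35S:miR396a. In Col-0 the branch genes other than CHLP and FLU lie above 1, with PORC among them, and PORA and PORB lie to the left at -7.16 and -1.08.

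The list of 15 genes for the steps from glutamate to protoporphyrin had 10 members in any table. With light in Col-0, 6 were listed higher and 1 lower (17.0% and 26.1% of all listed genes), and with light in 35S:miR396a 0 were higher and 1 lower (20.6% and 23.1%). In the dark none differed by genotype in the lists, beside 10.6% of all listed genes lower and 8.74% higher. In the light 9 were listed lower in 35S:miR396a and 0 higher (25.9% and 35.5% of all listed genes). Of 4 genes of the heme branch, 3 were in any table. With light in Col-0 1 was listed higher and 1 lower (17.0% and 26.1% of all listed genes). With light in the transgenic line 1 was higher and 0 lower (20.6% and 23.1%). Between genotypes 1 was lower and 0 higher in the dark (10.6% and 8.74%), and 2 were lower and 1 higher in the light (25.9% and 35.5%). FC1, a ferrochelatase, had 83.2 FPKM in dark Col-0, 31.4 in illuminated Col-0, 28.8 in dark 35S:miR396a and 84.1 in illuminated 35S:miR396a. Both light tables list it, with opposite directions: lower in the wild type, higher in the transgenic line. FC2, the other ferrochelatase, had 15.3 FPKM in the dark wild type and 55.6 after light, with 10.9 in the illuminated transgenic line, and was named after its values were seen. Of 7 genes of chlorophyll turnover, 4 were in any table. With light in Col-0, 3 were listed higher and 0 lower, beside 17.0% and 26.1% of all listed genes, and with light in 35S:miR396a 1 was higher and 1 lower, beside 20.6% and 23.1%. Between genotypes 0 were listed in the dark, beside 10.6% of all listed genes lower and 8.74% higher. In the light 3 were lower and 0 higher by genotype, beside 25.9% and 35.5%. CLH2, a chlorophyllase, was listed higher with light in both lines. It went from 0.306 to 1.18 FPKM in the wild type and from 0.360 to 2.23 in the transgenic line.

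Proteins known to act with POR or in its import were taken as a list of 8, of which 4 were in any table. LIL3.2, a light-harvesting-like protein of the chlorophyll branch, had 729 FPKM in dark Col-0, 156 in illuminated Col-0, 348 in dark 35S:miR396a and 71.1 in illuminated 35S:miR396a. It was the one member listed in both light tables, lower in each, and its levels went down with light and with the transgene. Of the 4, 1 was higher and 1 lower with light in Col-0, where the shares of all listed genes are 17.0% and 26.1%, and 0 were higher and 3 lower with light in 35S:miR396a, where they are 20.6% and 23.1%. Between genotypes 1 was lower in the dark and 3 in the light, with 0 higher, beside 10.6% and 25.9% of all listed genes lower.

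Among 22 regulators of POR or of greening, 15 were in any table. Of these 2 were listed higher and 6 lower with light in Col-0 (17.0% and 26.1% of all listed genes), and 4 higher and 5 lower with light in 35S:miR396a (20.6% and 23.1%). Between genotypes 5 were lower and 0 higher in the dark (10.6% and 8.74%), and 4 were lower and 2 higher in the light (25.9% and 35.5%). Several of these counts are near the share of all listed genes, such as the 4 lower by genotype in the light. PIF3, a factor that holds back greening in darkness, had 36.4 and 13.8 FPKM in dark and illuminated Col-0, and 34.8 and 12.8 in the transgenic line. PHYA, a light receptor, went from 287 to 53.2 FPKM in the wild type and from 351 to 59.3 in the transgenic line, and HEC1 had 22.9 and 10.6, and 14.9 and 5.46. These 3 were listed lower with light in both lines, as PORA and PORB were. HY5, a factor that promotes light responses, was listed lower with light in Col-0, from 60.0 to 19.4 FPKM, and higher in 35S:miR396a, from 16.9 to 39.5. HYH, its close relative, was listed higher in both, from 7.87 to 26 FPKM and from 2.78 to 34.4. RVE1, a clock-related factor reported to bind the PORA promoter, was chosen after its values were seen, and had 22.5 FPKM in dark Col-0, 8.13 in dark and 18.3 in illuminated 35S:miR396a.

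The transgene was checked on 8 known targets of miR396, the GRF genes and bHLH74. In 35S:miR396a 6 of the 8 were listed lower in the dark and 6 in the light, with 0 higher in either, where 10.6% and 25.9% of all listed genes were lower. GRF7, listed lower with light in both lines, had 24.1 FPKM in dark Col-0, 0.186 in illuminated Col-0, 3.21 in dark 35S:miR396a and 0.230 in illuminated 35S:miR396a. The markers of other tissues moved too. The 5 seed-reserve genes summed to 3.44 FPKM in dark Col-0, 13.2 in illuminated Col-0, 29.3 in dark 35S:miR396a and 84.6 in illuminated 35S:miR396a, and 5 of the 5 were listed higher in 35S:miR396a in the light and 4 in the dark, where 35.5% and 8.74% of all listed genes were higher. SESA1, a seed storage albumin, went with light from 0.426 to 1.78 FPKM in the wild type and from 0.450 to 9.27 in the transgenic line. SESA3, another, went from 0.680 to 2.30 and from 1.48 to 23.0. OLEO3, an oleosin gene outside this list, was named after its values were seen. It had 83.5 FPKM in dark Col-0, 4.21 in illuminated Col-0, 32.6 in dark and 6.22 in illuminated 35S:miR396a. Unlike the sum, OLEO3 was lower with light in both lines and lower in dark 35S:miR396a than in dark Col-0. Of 10 root markers, 5 were in any table. PYK10, named after its values were seen, had 3007 FPKM in dark and 6636 in illuminated 35S:miR396a. It has no Col-0 value and was listed in neither genotype comparison. The other root markers found lay between 0.420 and 4.29 FPKM. With light in Col-0, 0 of the root markers were listed higher and 1 lower (17.0% and 26.1% of all listed genes). With light in 35S:miR396a 1 was higher and 0 lower (20.6% and 23.1%). Between genotypes 0 were listed in the dark (8.74% higher and 10.6% lower). In the light 1 was higher and 0 lower by genotype (35.5% and 25.9%). Of 6 shoot-apex markers, 3 were listed higher in 35S:miR396a in the dark, 1 in the light, and 2 higher with light in Col-0. The shares of all listed genes that were higher were 8.74%, 35.5% and 17.0% in turn. With at least 1 FPKM required in the larger group, 0 of these markers stayed listed in any of these comparisons. The 3 or 4 shoot-apex markers with a value in a group summed to 1.22 FPKM in dark Col-0, 6.49 in illuminated Col-0, 12.5 in dark and 2.26 in illuminated 35S:miR396a. STM, which makes up most of the 6.49 and the 12.5, has no value in the other two groups. None of the listed marker values was 0, and the part of these markers in the POR differences was not tested.

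Genes whose pattern was most like each copy were sought among 3812 genes with values in all 4 groups and at least 5 FPKM in the highest, by the root mean square distance of log2(FPKM + 1) centred on the 4 group means. For PORA they were AT5G44440, a FAD-binding berberine family gene (distance 0.485), XTH15, a cell-wall xyloglucan enzyme (0.655), bbx23 (0.883), AT1G73120 (0.884) and MYB10 (0.886). AT5G44440 had 918 FPKM in dark Col-0, 17.7 in illuminated Col-0, 292 in dark and 14.9 in illuminated 35S:miR396a. For PORB they were AT2G04570 (0.131), PKS2 (0.133), NGA1 (0.186), an unannotated transcript of the sequencing centre (0.204) and PHOT1, a blue-light receptor (0.213). PHOT1 had 107 FPKM in dark Col-0, 48.2 in illuminated Col-0, 95.1 in dark and 11.5 in illuminated 35S:miR396a. For PORC they were AT3G46960 (0.109), HPR, the peroxisomal hydroxypyruvate reductase of photorespiration (0.155), ENH1 (0.159), AT2G04039 (0.162) and ZKT (0.167). HPR had 86.1 FPKM in dark Col-0, 474 in illuminated Col-0, 49.6 in dark and 73.6 in illuminated 35S:miR396a. By this distance PORA had no neighbour as close as those of PORB and PORC. The distance is not scaled for the size of the change, which was largest for PORA. With a correlation over the same 4 values in place of the distance, 0 of 5 genes were shared for PORA, 1 for PORB (AT2G04570) and 0 for PORC. The highest correlation was then 0.99983 for PORA (OLEO3), 0.99933 for PORB (AT2G47440) and 0.99997 for PORC (AT1G27480).

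**Figure D5:**
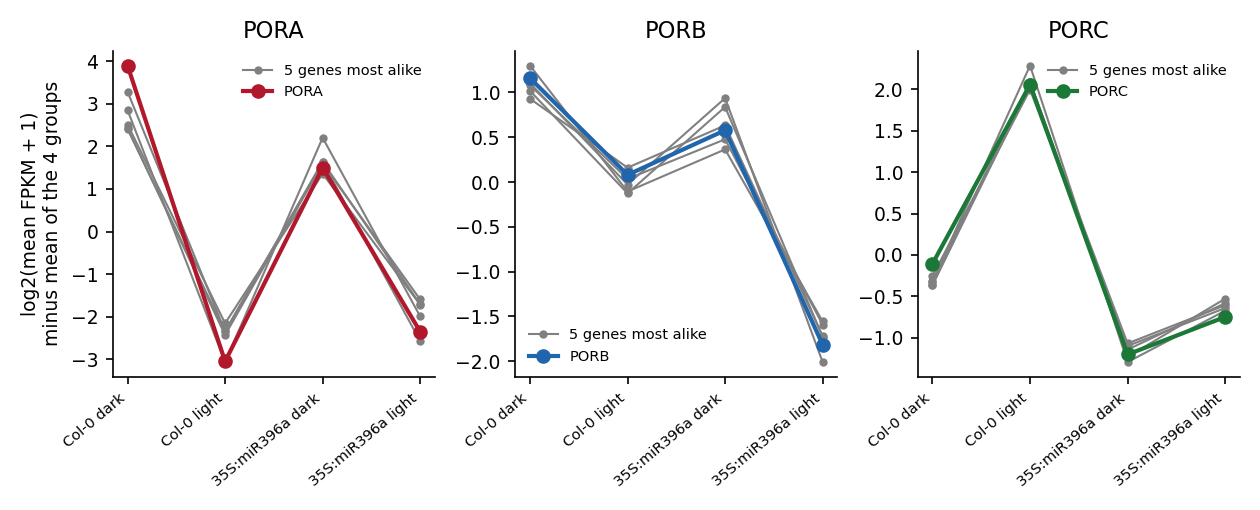
Log2(mean FPKM + 1) minus its mean over the 4 groups for PORA, PORB and PORC (coloured) and the 5 genes nearest each by distance (grey), in 3 panels whose vertical scales differ. The distance of the nearest gene is 0.485 for PORA, 0.131 for PORB and 0.109 for PORC.

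Outside the family, the proteins closest to PORB by blastp were Tic32-IVa (30.8% identical over 331 residues), AT4G23420 (30.6%) and AT2G37540 (30.2%). Of these AT4G23420 was in a table, at 4.60 FPKM in the illuminated wild type against 10.3 in the illuminated transgenic line, where the authors' deposited table lists it higher. The other two were in no table.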

How the data were processed

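RNA was sequenced from 12 libraries on the BGISEQ-500, per the labels' protocols. HISAT and Bowtie2, in versions the sources used here do not give, aligned the reads to TAIR10, per the submitters' processing notes. Titles with D were taken as dark and those with L as light. The deposited FPKM values are group averages made by the authors, per the file headers. The deposited log2 fold changes, q-values and p-values carry DEGseq's name in the file headers, although the design text names NOISeq. The deposited tables hold called genes only, and 0 genes had a group average that changed from table to table. The POR genes and the gene lists were chosen with earlier results of these data known.

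Ratios were computed from the averages, log2 ratios only where both are above 0. No model or test was run. Depth was solved from deposited folds and p-values under DEGseq's random-sampling model, taking equal depths. The formula was checked only on noiseless values made with that same model. Whether the model holds for these data was not tested. Named genes are the POR copies, list members in both light tables, 10 genes near POR in the pathway (GUN4, CHLH, CHLM, CRD1, LCAA, DVR, CHLG, CHLP, CAO and FLU), the 5 nearest patterns per copy and the 3 closest proteins outside the family. Sequences and coordinates come from TAIR10.1, to which 11157 identifiers matched. Identities used biopython 1.88 and blastp 2.17.0, with Python 3.11.15, numpy 2.4.6, pandas 2.3.3, scipy 1.17.1 and matplotlib 3.10.9. Alternatives tried were a pseudocount, centring on the median, a 4-fold minimum, a low-value filter, transcript-length weights and leaving out a copy.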

Additional observations from a re-analysis of the deposited data

How the results depend on the processing

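No log2 ratio of the POR copies or of their sum changed sign under any alternative. Shares and counts, which include every value of the chlorophyll list, could only stay or move. Of the POR and chlorophyll-list values under alternatives, 78 moved by less than 0.1 on the log2 scale or 1.5-fold for counts, and 30 by more. Some of the 78 could not move, such as counts of 0 under a stricter minimum. With log2(FPKM + 1) the light ratio of PORA was -6.94 (Col-0) or -3.85 (35S:miR396a). Centred on the median of the genes listed in any comparison, the light ratios of PORA, PORB and PORC in Col-0 were -6.80, -0.72 and 2.58. Those in 35S:miR396a were -3.85, -2.28 and 0.62. The genotype ratios in the light were then 0.18, -2.51 and -3.52, and the differences of the light ratio 2.87, -1.64 and -2.04. Weighted by transcript length, the share of PORC was 1.23% in dark Col-0, 18.8% in illuminated Col-0, 1.23% in dark and 9.75% in illuminated 35S:miR396a. Without PORA, the log2 ratio of the sum was -0.83 (light, Col-0), -2.28 (light, 35S:miR396a) and -0.59 (genotype, dark). Without PORC it was -2.03, -2.62 and, for genotype in the light, -1.80. At 4-fold or more, copies listed lower numbered 1 with light in Col-0 and 1 in each genotype comparison. Chlorophyll genes then listed numbered 7 higher with light in Col-0, 1 lower with light in 35S:miR396a and 0 lower for genotype in the dark. Leaving out a replicate could not be run and no paired analysis was possible because the tables hold group averages only, so the spread between replicates limits every comparison.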
